A study of Drosophila melanogaster with 7 samples.

Results

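Merged regions that carried WOC, ROW and Z4 but neither Dsk2 nor HP1c made up 400 of the 13044 merged regions of the study (3.07%). They were found by pooling the called intervals of all 5 proteins, chaining intervals that shared at least 1 bp, and keeping the chains to which exactly these 3 lists contributed. The data come from chromatin immunoprecipitation and sequencing in S2 cells, a line derived from Drosophila melanogaster embryos, with no treatment given in the labels. Each protein had 1 library and 1 list of called intervals, made with a polyclonal antibody raised in rabbit (WOC, ROW, Dsk2 and HP1c) or guinea pig (Z4). Each list was called against an input library (chromatin that was not immunoprecipitated). WOC, ROW and Z4 had one input in common, and HP1c and Dsk2 had a second.

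WOC and ROW are zinc-finger proteins that bind chromatin together with HP1c, the member of the fly heterochromatin protein 1 family found in euchromatin. Z4, also called Putzig, is a zinc-finger protein of the decondensed interbands of polytene chromosomes. Dsk2 belongs to the ubiquilins, which bind ubiquitin, and the study asked how it relates to HP1c binding at gene starts. The 400 regions are places where both zinc-finger partners of HP1c were called while HP1c and Dsk2 were not.

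The regions were chosen by the called intervals themselves, through presence in 3 lists and absence from the other 2, so interval positions and widths are given as descriptions, with no test. The 3 proteins that had to be present were called against one input and the 2 that had to be absent against the other, so the input and the class cannot be told apart. The lists hold positions only, without read numbers or scores, and the depth of the libraries is unknown. Ranges given after a share are exact 95% confidence intervals by the Clopper-Pearson method. They allow for counting error alone and treat the regions as independent.

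The regions took a small part of each list. They held 412 of the 5849 WOC intervals (7.04%), 429 of the 8999 ROW intervals (4.77%) and 457 of the 7491 Z4 intervals (6.10%). Of the 2658 merged regions with WOC, ROW and Z4 in any company, they were 15.0% (13.7 to 16.5%). Of the 1433 merged regions with WOC and without Dsk2 and HP1c, they were 27.9% (25.6 to 30.3%). Most were simple, since 326 of 400 (81.5%) held 1 interval of each protein and 74 held more than 1 of at least one. In each list, successive intervals were at least 301 bp apart, from end to start, and the median merged width was 664 bp. This spacing limits how many intervals of a protein fit in a region, and its part was not tested. Several Z4 intervals were found in 41 regions, several ROW intervals in 29 and several WOC intervals in 11. A single region held at most 7 Z4, 2 ROW and 3 WOC intervals.

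Exactly 3 arrangements accounted for all but 1 of the 400 regions, and ROW and Z4 shared bases in every one. In 193 regions (48.25%, 43.3 to 53.3%) Z4 was the link, overlapping WOC on one part and ROW on another while WOC and ROW shared no base. All 3 proteins shared at least 1 base in 167 regions (41.75%, 36.9 to 46.8%). ROW was the link in 39 regions (9.75%, 7.03 to 13.1%). WOC was the link in none of the 400, a count of 0 whose exact interval reaches 0.918%. In the remaining region each pair of proteins overlapped, but no base was common to all 3. WOC thus shared bases with Z4 in 361 regions (90.25%, 86.9 to 93.0%) and with ROW in 207 (51.75%, 46.7 to 56.7%).

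The WOC interval was usually a short stretch inside the Z4 interval. In 316 regions (79.0%) every WOC base lay within Z4, and in 158 (39.5%) every WOC base lay within ROW. WOC reached an outer end of the merged region in 26 regions (6.50%), against 319 (79.75%) for ROW and 256 (64.0%) for Z4. Of the bases of the 400 regions, WOC covered 12.3%, ROW 73.3% and Z4 63.1%, and all 3 together covered 4.36%. Of the WOC bases, 85.3% were also in Z4 and 47.4% also in ROW. Where all 3 overlapped, the common stretch had a median of 58 bp (quartiles 25 and 126.5 bp). Where WOC and ROW shared no base, the median gap between them was 113 bp (quartiles 81 and 161 bp), and in the 39 regions without contact of WOC and Z4 the gap had a median of 166 bp.

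The midpoints gave the same picture in the 326 regions with 1 interval of each protein. WOC and Z4 midpoints were a median of 57.25 bp apart, ROW and Z4 midpoints 152.5 bp, and WOC and ROW midpoints 194.75 bp. The Z4 midpoint lay between the other two in 231 of these regions (70.9%), the WOC midpoint in 54 and the ROW midpoint in 41. ROW lay to the right of WOC along the chromosome in 174 (53.4%, 47.8 to 58.9%), an interval that includes an even split.

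The 4-protein class with Dsk2 added, 1299 regions, had a larger WOC part. Z4 was the link between WOC and ROW in 48.25% of the 400 regions and in 42.0% of the regions with Dsk2. A base common to WOC, ROW and Z4 was found in 41.75% (36.9 to 46.8%) and in 51.3% (48.6 to 54.1%), and in 70.0% of the 921 regions with all 5 proteins. Every WOC base lay within Z4 in 79.0% of the 400 regions (74.7 to 82.9%), against 65.6% of those with Dsk2 (62.9 to 68.2%). WOC reached an outer end in 6.50% and in 18.5%. WOC covered 12.3% of the bases in the 400 regions, 30.2% in those with Dsk2 and 34.9% in those with all 5. Z4 covered 63.1%, 64.7% and 58.7% in the same order, and ROW 73.3%, 68.4% and 74.0%. The order of the midpoints was much alike in these classes. Among regions with 1 interval of each protein, the Z4 midpoint lay between the other two in 70.9%, 68.9% and 65.4%. WOC shared bases with Z4 in 90.25%, 94.3% and 97.4% of all regions of each class. The place of Z4 between WOC and ROW is thus not particular to the 400 regions. Wider WOC intervals have more room to reach ROW, and this was not tested.

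Around the WOC midpoints, cover by Z4 decreased with distance while cover by ROW was no lower at 200 bp than at the midpoint itself. In the 400 regions Z4 covered 84.7% of the 412 WOC midpoints, 58.7% of the positions 200 bp away and 17.4% of those 400 bp away. ROW covered 47.3% of the midpoints, 51.2% at 200 bp and 32.2% at 400 bp. In the class with Dsk2, Z4 covered 83.1% of WOC midpoints and 69.5% of positions at 200 bp, and ROW covered 43.7% and 46.0%. Cover by Dsk2 and HP1c is set to 0 by the rule inside the 400 regions, which still held 35.4% of the positions at 400 bp. At 2000 bp, where 2.43% of positions lay inside the region, Dsk2 covered 2.67% and HP1c 0.971% of positions around the 400 regions, against 2.25% and 0.572% around the regions with Dsk2.

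**Figure D1:**
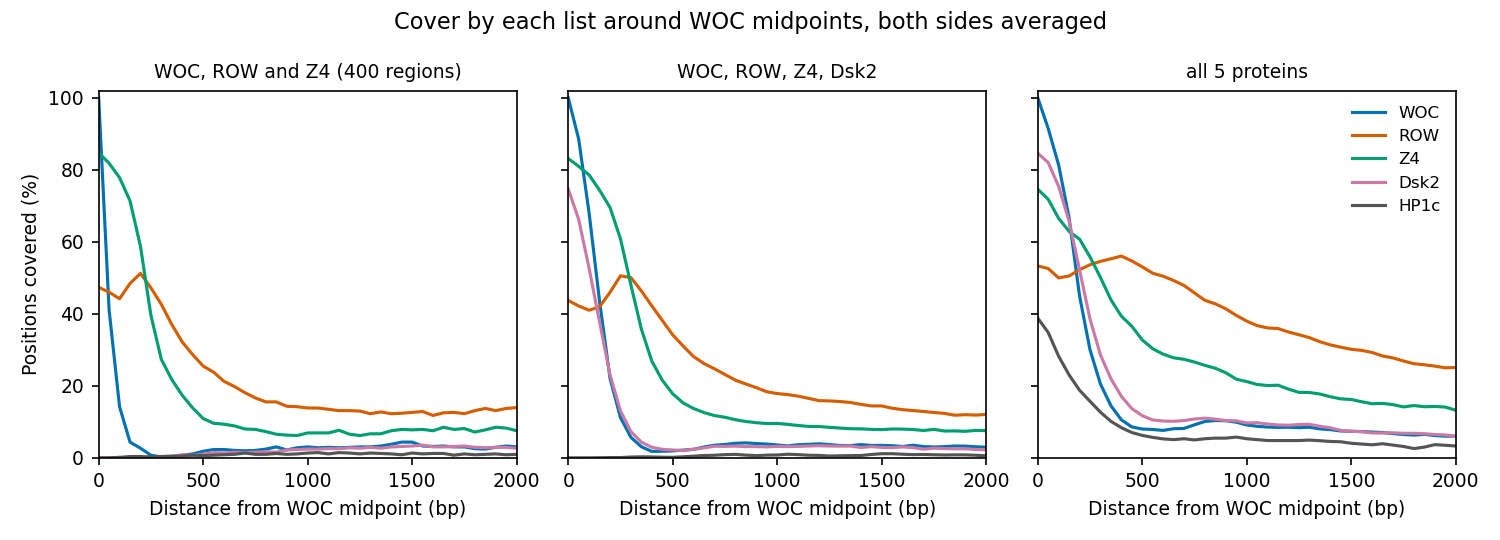
Share of positions covered by each protein's intervals (y axis, percent) at distances from the WOC midpoint (x axis, bp, both sides averaged) in the 400 regions, in regions with Dsk2 added and in regions with all 5 proteins. In the 400 regions Z4 starts at 84.7% and ROW at 47.3%, and ROW reaches 51.2% at 200 bp; there the rule itself keeps Dsk2 and HP1c at 0 inside the region.

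The WOC intervals of these regions were narrow compared with the rest of the WOC list. Their median was 75.5 bp (interval of the median 62 to 88 bp), against 269 bp in the class with Dsk2 added, 373.5 bp in the class with all 5 proteins and 205 bp in the whole list. The range was 1 to 710 bp, and 160 of 412 (38.8%) were under 50 bp, against 5.87% in the class with Dsk2 and 16.8% in the whole list. WOC was narrower still where it had no other company, with a median of 40 bp in WOC only regions and 52 bp with Z4 only, while it was 81 bp with ROW only.

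ROW and Z4 medians differed between classes as well, by less than the WOC medians. With all 5 proteins they were 474 bp for ROW (419 to 519 bp) and 531 bp for Z4 (501 to 559 bp). ROW had a median of 325 bp in the 400 regions (277 to 390 bp), against 331 bp with Dsk2 added and 415.5 bp in the 1861 regions of ROW with Z4 only. Z4 had a median of 428 bp (409 to 446 bp) in the 400 regions. It was 550.5 bp with Dsk2 added (533 to 566 bp) and 302 bp in ROW with Z4 only (288 to 312 bp). Z4 intervals under 50 bp made up 10.5% of those in the 400 regions and 23.2% of those in ROW with Z4 only. The merged regions had a median width of 664 bp, with quartiles of 460.75 and 978.5 bp and a range of 175 to 8368 bp. The medians were 818 bp with Dsk2 added, 1160 bp with all 5 proteins and 586 bp for ROW with Z4 only. Regions over 2000 bp numbered 23 of the 400.

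Width followed the arrangement as well. Where ROW was the link, the median ROW interval was 1204 bp, the Z4 interval 78.5 bp and the WOC interval 46 bp. Z4-linked regions had a median ROW interval of 147 bp, a Z4 interval of 446 bp and a WOC interval of 64 bp. The regions with a common base had medians of 671.5 bp for ROW, 475 bp for Z4 and 105 bp for WOC. In both linked arrangements the linking protein had the widest median interval. A wide interval links others more easily under this rule, and its part was not tested.

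The share of WOC intervals in these regions decreased with WOC width, as did the share in WOC only regions, while the share in regions with Dsk2 increased. Of the 982 WOC intervals under 50 bp, 16.3% lay in the 400 regions and 25.2% in regions with Dsk2. From 100 bp to under 200 bp the shares were 8.80% and 73.9% of 1262 intervals. From 200 bp to under 400 bp they were 2.59% and 94.2% of 1854. Among the 1125 WOC intervals of 400 bp or more, 11 (0.978%) lay in the 400 regions and 1109 (98.6%) in regions with Dsk2. WOC only regions held 45.2% of the intervals under 50 bp, 9.83% from 100 bp to under 200 bp, 1.83% from 200 bp to under 400 bp and 0% of the widest. The decrease is thus not particular to the 400 regions.

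**Figure D2:**
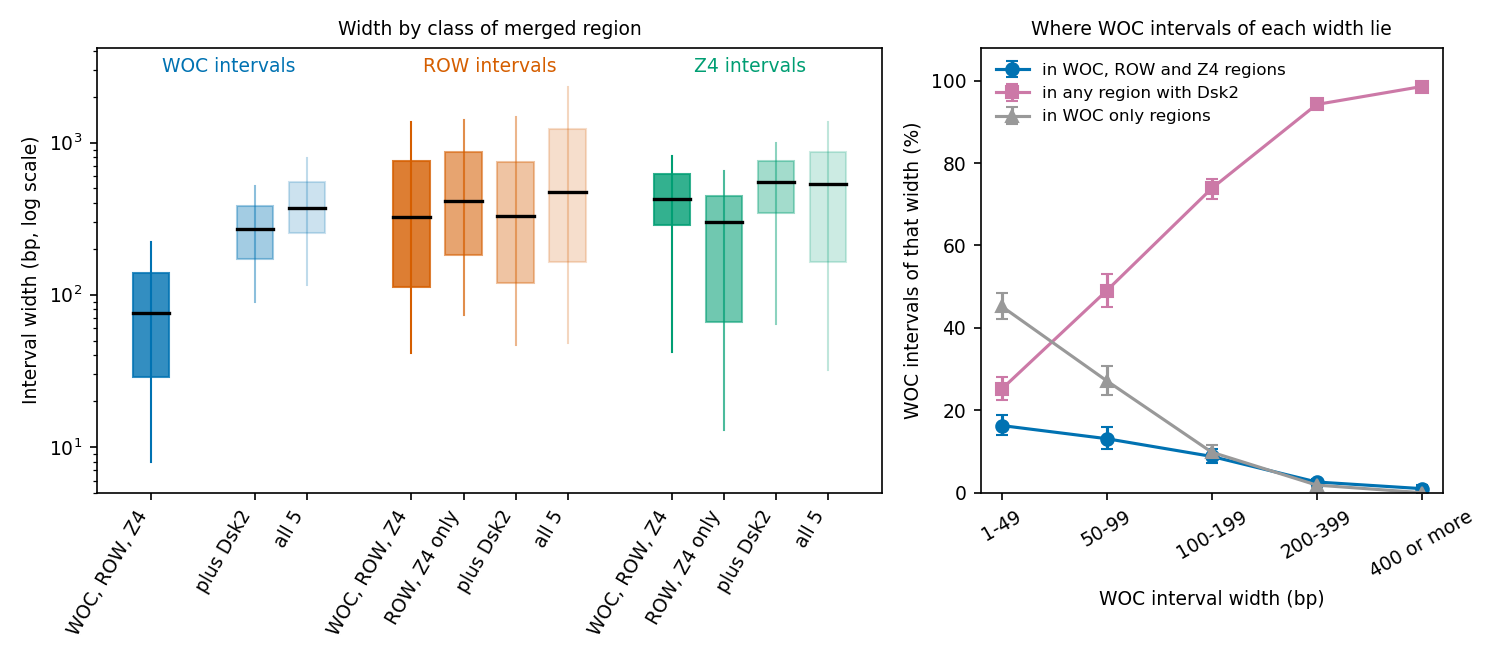
Left, widths of WOC, ROW and Z4 intervals (y axis, bp, log scale) by class of merged region, where boxes span the quartiles, black lines are medians and thin lines run between the 10% and 90% points. Right, share of WOC intervals of each width (x axis, bp) that lay in the 400 regions, in any region with Dsk2 or in WOC only regions, with exact 95% intervals; the share with Dsk2 is 25.2% under 50 bp and 98.6% at 400 bp or more.

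Wide WOC intervals without Dsk2 were mostly in this class. Only 16 WOC intervals of at least 400 bp had no Dsk2 interval in their merged region, and 11 of them lay in 11 of the 400 regions. The other 5 lay in 3 regions with HP1c and 2 with ROW as the only other protein. For scale, the 400 were 27.9% of the merged regions with WOC of any width and without Dsk2 and HP1c. That share counts regions rather than intervals and leaves out regions with HP1c, so the comparison is a rough one. A wide interval meets other lists more easily under this rule, and its part was not tested. In dm3 coordinates, used for all positions given here, the widest was 710 bp on X from 16492584 to 16493293. It lay in a merged region of 967 bp, 11214 bp from the nearest Dsk2 interval. Next among the 11 came the 571 bp interval on 3R described below, and a 524 bp interval on X from 8786748 to 8787271, which was 150 bp from Dsk2. Distances to Dsk2 over the 11 regions ran from 150 to 14954 bp. This set of wide intervals was chosen after the values had been seen.

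The longest stretches covered by all 3 proteins show the class where the called intervals coincided most. On 3R, from 20055480 to 20056450, a WOC interval of 571 bp lay wholly inside a ROW interval of 939 bp and a Z4 interval of 901 bp. This region was 7519 bp from Dsk2 and 21867 bp from HP1c. On 2R, from 1647369 to 1648726, the common stretch was the whole WOC interval of 477 bp, inside ROW (1358 bp) and Z4 (918 bp). The third, on 2R from 2563095 to 2563750, had a common stretch of 437 bp, with ROW and Z4 of 628 and 621 bp. It was the nearest of the 5 to Dsk2, at 2040 bp. The last pair lay on 3R, from 25574205 to 25575336 (424 bp shared) and from 5550612 to 5551930 (379 bp shared), with Dsk2 at 5697 and 13781 bp. In all 5 the WOC interval was the innermost and gave the common stretch.

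**Figure D3:**
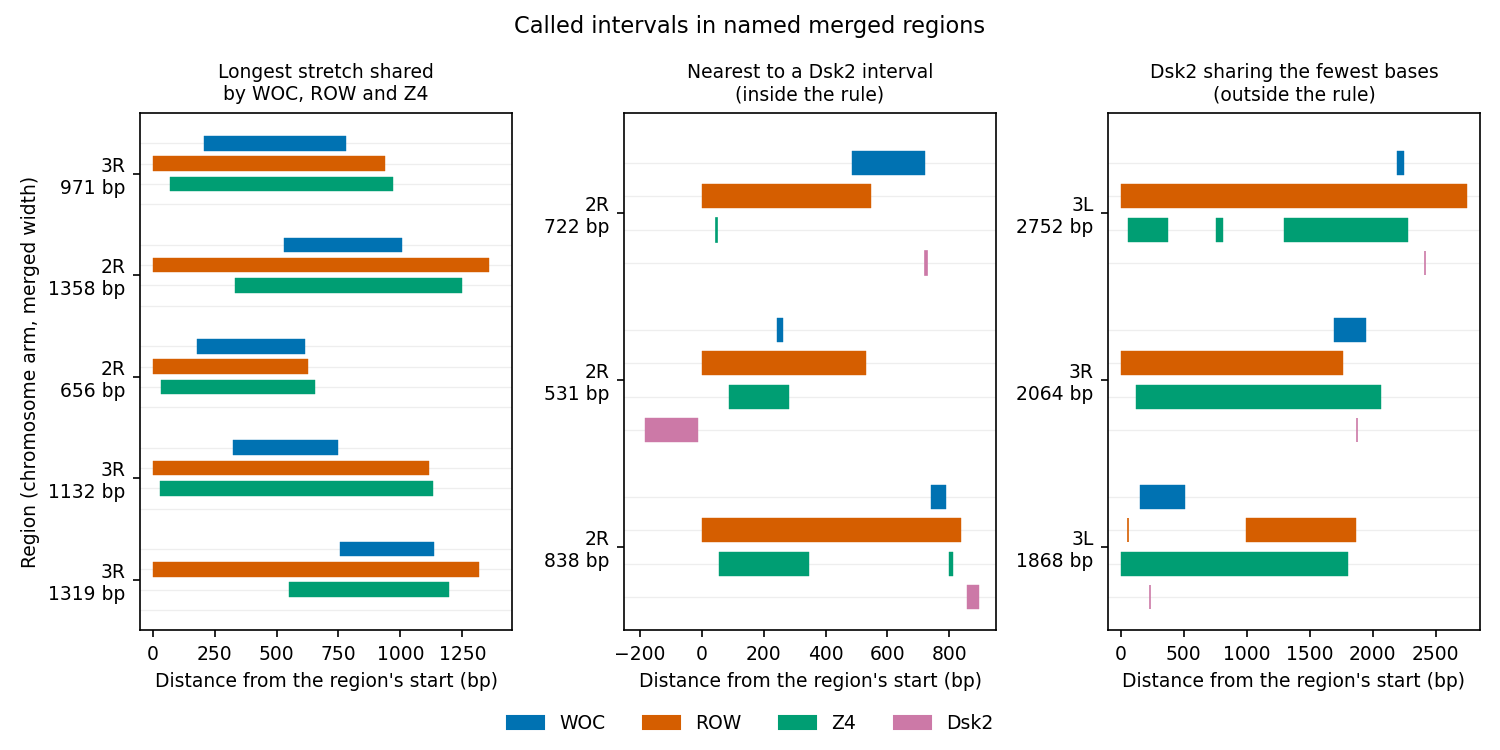
Called intervals of WOC, ROW, Z4 and Dsk2 (coloured bars) along merged regions, drawn to scale from each region's start (x axis, bp), with a thin outline around intervals under 10 bp so that they stay visible. Left, the 5 regions with the longest common stretch, where WOC lies inside ROW and Z4; middle, the 3 regions nearest to Dsk2, which lies 0, 12 and 18 bp outside; right, 3 regions left out of the class because of a Dsk2 interval of 1 bp.

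The widest regions were ROW intervals with short WOC intervals inside. The widest of all, 8368 bp on 2R from 6957220 to 6965587, was a single ROW interval that held 7 Z4 intervals and 1 WOC interval of 103 bp, of which 70 bp were also in Z4. It had the most intervals of any of the 400, 9 in all. The second, 6019 bp on 3L from 4352336 to 4358354, held 2 WOC intervals of 136 and 33 bp and a Z4 interval of 3476 bp. The third, 4593 bp on 3L from 645959 to 650551, held a Z4 interval of 3477 bp and a WOC interval of 33 bp. The fourth lay on 2L (3910 bp, 8127541 to 8131450) and the fifth on 3R (3725 bp, 19839283 to 19843007). In each of the 5 the ROW interval spanned the full width, and all 3 proteins shared 33 to 82 bp. Besides the first and the fifth, the region with most intervals was on 3R from 3013948 to 3016789, with 5 Z4 intervals of 1 to 67 bp and a WOC interval of 137 bp inside one ROW interval.

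Most of the 400 regions lay kilobases away from Dsk2 and HP1c. On the 5 large arms (393 regions) the nearest Dsk2 interval was at a median of 4128 bp (quartiles 1768 and 9438 bp) and the nearest HP1c interval at 8015 bp (quartiles 3119 and 20561 bp). Dsk2 was nearer than HP1c in 320 of the 400 regions (80.0%), and its list is the longer, with 4748 intervals against 2711. For ROW with Z4 only, the medians on the large arms were 3351 bp to Dsk2 and 6672 bp to HP1c. The part of list length was not tested. A Dsk2 interval lay within 500 bp of 47 regions (11.75%, 8.76 to 15.3%) and an HP1c interval within 500 bp of 36 (9.0%, 6.38 to 12.2%). Both were within 500 bp of 20 regions, and 156 (39.0%) lay more than 5000 bp from either. Absence inside the region is the rule, so these distances run outward from its edge. The shares within 500 bp moved with some settings of the chaining and of the interval lists. Chaining across gaps of up to 100 bp gave 9.07% for Dsk2 and 6.37% for HP1c. With 50 shared bases required they were 42.0% for Dsk2 and 18.6% for HP1c, counting intervals that overlap the region without being chained to it. With the 50% widest intervals of each list they were 2.99% and 4.98%.

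Set beside other classes without Dsk2 and HP1c, these regions were between WOC with Z4 only and ROW with Z4 only in their closeness to both proteins. Dsk2 lay within 500 bp of 11.75% of the 400 regions, 4.35% of the 184 regions of WOC with Z4 only (1.90 to 8.39%), 18.6% of ROW with Z4 only (16.8 to 20.4%) and 26.0% of the 77 regions of WOC with ROW only (16.6 to 37.2%). Within 10000 bp the shares were 75.5%, 68.5%, 78.2% and 84.4%. HP1c lay within 500 bp of 9.0% of the 400 regions, 3.26% of WOC with Z4 only, 15.4% of ROW with Z4 only and 15.6% of WOC with ROW only. WOC only regions had Dsk2 within 500 bp in 15.4% and HP1c in 7.25%. At 500 bp the exact interval of the 400 regions lies below that of ROW with Z4 only for both proteins, and above that of WOC with Z4 only for Dsk2. The difference itself was not tested. This order did not hold when 50 shared bases were required, a setting whose shares also count intervals that overlap the region without being chained to it. Dsk2 then lay within 500 bp of 42.0% of the WOC, ROW and Z4 regions, 38.1% of WOC with Z4 only and 22.2% of ROW with Z4 only. For HP1c the shares were then 18.6%, 7.43% and 16.4%. Without intervals under 50 bp, HP1c lay near 11.6% of the WOC, ROW and Z4 regions and 11.0% of ROW with Z4 only. These alternatives for the other classes were added after the values had been seen.

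**Figure D4:**
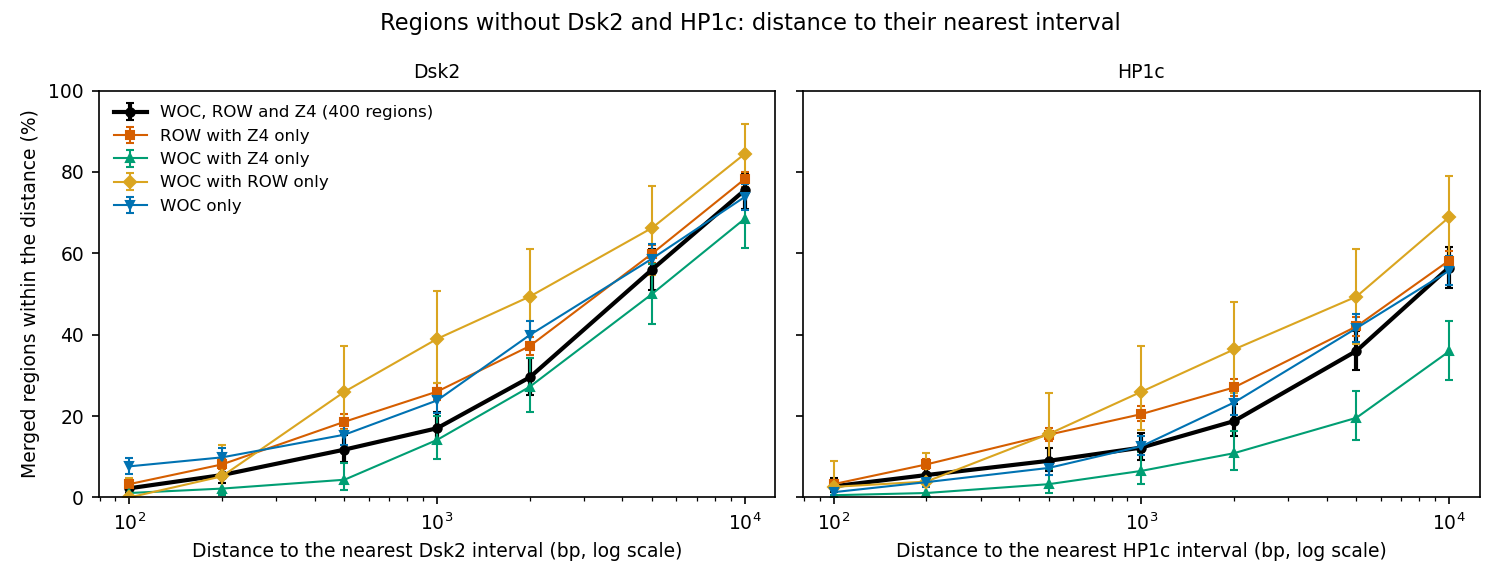
Share of merged regions (y axis, percent, with exact 95% intervals) that have a Dsk2 (left) or HP1c interval (right) within the distance on the x axis (bp, log scale), for the 400 regions and for 4 other classes without either protein. Within 500 bp of Dsk2 the 400 regions stand at 11.75%, WOC with Z4 only at 4.35% and ROW with Z4 only at 18.6%.

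Where Dsk2 was close, the ROW interval was most often the one that faced it. In 40 of the 47 regions within 500 bp of Dsk2 (85.1%, 71.7 to 93.8%) the ROW interval was the nearest to it, in 4 the WOC interval and in 3 the Z4 interval. In the 353 regions farther away ROW was the nearest to Dsk2 in 177 (50.1%, 44.8 to 55.5%). ROW reached an outer end in 79.75% of all 400, a share that counts either end and not only the one towards Dsk2. These 47 regions had a median ROW interval of 704 bp and a Z4 interval of 263.5 bp, while the other 353 had medians of 300 bp for ROW and 436 bp for Z4. WOC intervals had a median of 60 bp in the 47 regions and 78.5 bp in the 353. Of the ROW-linked regions 30.8% were within 500 bp of Dsk2, against 6.74% of the Z4-linked ones and 13.2% of those with a common base. Distances run from the edge of the region, and a wide ROW interval often sets that edge and so lies nearer to Dsk2. The counts of the facing interval and these shares thus depend in part on ROW width through the measure itself. That part was not tested. The neighbouring Dsk2 interval had a median width of 215 bp, against 216 bp in the whole Dsk2 list, and 38 of 47 (80.9%) lay in a merged region that also held WOC, against 90.2% of the whole Dsk2 list. Of the HP1c intervals nearest to the 36 regions, 16 lay in a merged region with WOC (44.4%), against 63.7% of the whole HP1c list.

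The edge of the rule was thin for some regions. The nearest to Dsk2, on 2R from 5071478 to 5072199, ended with a WOC interval of 237 bp directly next to a Dsk2 interval of 7 bp, with 0 bp between them, and its Z4 interval was 1 bp wide. Dsk2 lay 12 bp from the second, on 2R from 6431050 to 6431580, and 18 bp from the third, on 2R from 12705624 to 12706461. HP1c came within 28 bp of a region on 3L (446025 to 446882), 29 bp of another on 3L (270341 to 271477) and 38 bp of one on 2R (2007220 to 2007944). Just outside the rule were 11 regions with WOC, ROW, Z4 and Dsk2, and no HP1c, in which Dsk2 shared 1 bp with the others. The 3 widest of them lay on 3L (547974 to 550725), 3R (5328482 to 5330545) and 3L (3192335 to 3194202), each with a Dsk2 interval 1 bp wide that lay wholly inside the region. The contact of WOC was itself short in part, since in 46 of the 400 regions WOC shared at most 10 bp with ROW or Z4. ROW and Z4 shared at most 10 bp in 14.

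Neighbouring merged regions were most often ROW only, a class that was no commoner there than among all merged regions. The next merged region lay at a median of 1217.5 bp (quartiles 393.5 and 2964 bp). It was ROW only in 90 cases (22.5%, against 26.3% of all merged regions), ROW with Z4 only in 74 (18.5%, against 14.3%) and the 4 proteins without HP1c in 53 (13.25%, against 9.96%). It held Dsk2 in 155 cases (38.75%, 33.9 to 43.7%), against 35.0% of all merged regions outside the 400. Another of the 400 was the nearest in 12 cases (3.0%).

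The 400 regions were spread over all 5 large arms, with a lower share on X than the merged regions as a whole, a difference that was not tested. They numbered 98 on 3R, 84 on 3L, 82 on 2R, 72 on 2L and 57 on X. X held 14.25% of them (11.0 to 18.1%), 14.2% of ROW with Z4 only, 10.9% of the class with Dsk2 added and 19.1% of all merged regions (18.4 to 19.75%). WOC with Z4 only, the same pair without ROW, had 31.5% on X (24.9 to 38.8%). Per 100 merged regions there were 2.29 of the 400 on X, and between 3.14 on 2L and 3.33 on 3R on the others. The density was 2.55 per Mb on X and 3.88 per Mb on 2R, over the span between the outermost intervals.

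The make-up of these regions was also described arm by arm. Median merged widths ran from 583.5 bp on 2L to 728.5 bp on 3L, and median WOC widths from 54.5 bp on 3L to 89 bp on X. A base common to all 3 was found in 33.3% of the regions on 2L (22.7 to 45.4%) and in 47.4% on X (34.0 to 61.0%), with overlapping intervals. The median distance to Dsk2 ran from 3517 bp on X to 4624.5 bp on 3L, and that to HP1c from 4396 bp on X to 9677 bp on 2L. The span of each arm was also divided into 5 equal parts from low to high positions. On 3R these held 25, 10, 13, 34 and 16 of the 400 regions, against 607, 565, 565, 662 and 544 of all merged regions. On X they held 13, 5, 9, 20 and 10 of the 400, against 524, 483, 549, 531 and 400 of all merged regions. The spread was more even on 2R, with 16, 19, 16, 14 and 17 of the 400, against 416, 554, 539, 483 and 477 of all merged regions.

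Chromosome 4, the small heterochromatin-rich chromosome, held 1 of the 400 regions (0.25%, up to 1.38%), while the class with Dsk2 added had 22 of 1299 there (1.69%, 1.06 to 2.55%). Chromosome 4 held 0.782% of all merged regions, a share inside the interval of the 400, as well as 0.543% of the regions with all 5 proteins and 0.269% of ROW with Z4 only. The member on chromosome 4 ran from 1049813 to 1050081, with WOC, ROW and Z4 intervals of 128, 173 and 224 bp, and a Dsk2 interval of 1025 bp lay 1414 bp away. The other 6 regions off the large arms lay in unplaced or heterochromatic sequence, 4 of them in Uextra. The 3 regions farthest from Dsk2 were of this kind, all in Uextra, where unplaced scaffolds are joined and distance along the sequence has no chromosomal meaning. Each had its ROW interval (127 to 139 bp) inside WOC (200 to 338 bp) and WOC inside Z4 (212 to 354 bp). Among the large arms, the farthest was on 3R from 2482843 to 2483804, with Dsk2 133392 bp away, followed by 2R from 21140620 to 21141180 (87682 bp) and 3L from 4021263 to 4021816 (80621 bp).

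**Figure D5:**
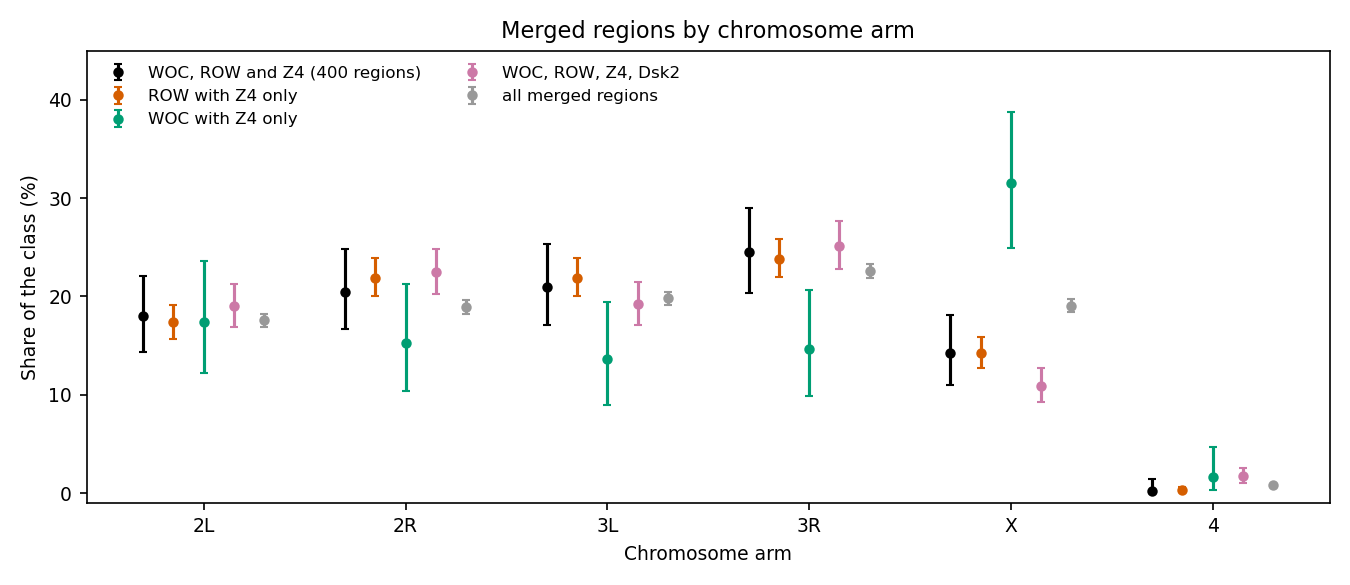
Share of each class of merged regions (y axis, percent, with exact 95% intervals) on each chromosome arm (x axis). X holds 14.25% of the 400 regions, 31.5% of WOC with Z4 only and 19.1% of all merged regions, and chromosome 4 holds 1 of the 400.

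Membership depended on the settings. Asking for 50 shared bases gave 317 regions, of which 123 were at other places, and kept 194 of the 400. With every interval set to 200 bp there were 280 regions, which overlapped 233 of the 400. With the 50% widest intervals of each list the class had 201 regions, and only 30 of the 400 overlapped one of them, while 171 of the 201 were at other places. With lists cut to 2711 intervals, the length of the HP1c list, it had 71 regions, which overlapped 16 of the 400. Leaving out intervals under 50 bp gave 345 regions and kept 212 of the 400.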

How the data were processed

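Region lists of 5 immunoprecipitations in S2 cells were used, 1 library each. The authors' deposited files hold a chromosome, a start and an end in dm3, and no score. Regions were called against input, per the series' design text. CASAVA 1.8, FastQC 0.9.3 and Bowtie 0.12.5 are named in the submitters' processing notes. Neither the caller nor its threshold is named, and the read depth is unknown. Some intervals start and end at 1 position, so both ends were counted, and whether numbering starts at 0 or 1 is not stated. In each of the 5 lists the smallest step, from the end of an interval to the start of the next, was 301 bp. Whether closer intervals had been joined into one before deposit is not stated.

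Intervals sharing at least 1 bp were chained into merged regions. The chaining, arrangement and distance steps were checked on simulated data. Distances count the bases between a region and the nearest interval on its chromosome. With 1 library per protein there are no replicates, and no test was made. Shares have exact 95% intervals, and medians have intervals from order statistics. The members, comparisons and lists were chosen with earlier results of these data known.

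Named regions are the 5 widest, the 5 with the longest common stretch, the 3 nearest to and the 3 farthest from Dsk2, the 3 nearest to HP1c, the 3 with most intervals, the widest on chromosome 4 and 3 just outside the rule. The farthest on the large arms and the widest WOC intervals without Dsk2 were added after the values had been seen. The gene table at hand is of a later release than dm3, so regions were not assigned to genes and no sequence was read. The tools were pandas 2.3.3, SciPy 1.17.1 and NumPy 2.4.6 under Python 3.11.15, with figures from matplotlib 3.10.9. The 8 alternatives tried are given at the end.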

Additional observations from a re-analysis of the deposited data

How the results depend on the processing

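Of the 8 alternatives, counting interval ends as exclusive (404 regions) and keeping only the 5 large arms (393) left the median width and every share within the interval of the reported value. Chaining across gaps of up to 100 bp moved only the share with HP1c within 500 bp, to 6.37%. Asking for 50 shared bases gave a median width of 796 bp, a common base in 54.9%, WOC with ROW in 62.8%, Dsk2 within 500 bp in 42.0% and HP1c in 18.6%; under this setting an interval of Dsk2 or HP1c may touch the region by fewer than 50 bases. Without intervals under 50 bp the width was 779 bp, a common base was found in 50.1% and WOC with ROW in 58.0%. Setting every interval to 200 bp gave 280 regions with a width of 369 bp, a common base in 65.7%, WOC with ROW in 74.6%, WOC with Z4 in 96.8% and Dsk2 within 500 bp in 15.4%. The 50% widest intervals gave 201 regions, a width of 1053 bp, a common base in 59.7%, WOC with ROW in 68.2%, Dsk2 within 500 bp in 2.99%, HP1c in 4.98% and 10.9% on X. Lists of equal length gave 71 regions, 1237 bp, a common base in 69.0%, WOC with ROW in 77.5%, Dsk2 within 500 bp in 7.04% and 8.45% on X. WOC overlapped Z4 more often than ROW in all 9 versions. The cause of these shifts was not tested. Because the lists carry no read numbers, a protein that was present below the calling threshold cannot be told apart from an absent one. No paired analysis was possible because each protein had 1 library.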
